A study of Rattus norvegicus with 6 samples.

Results

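The 39 genes described here carry a fatty acid through a heart muscle cell: uptake from the medium, activation to acyl-CoA, storage as triglyceride, mitochondrial beta-oxidation and the linked choice of fuel. They form a list of symbols set by function, drawn up with earlier results of these data known, and each was matched to the array through the RefSeq accession of its probes. All 39 had a probe, out of 15168 named genes on the array, and the brightest probe stood for a gene. The samples were primary ventricular myocytes of male Sprague-Dawley rats aged 1 to 2 days. The si-uc.323 cultures received 50 nmol/L of an siRNA against uc.323, a transcribed ultraconserved region, and the si-scramble cultures received 50 nmol/L of a scrambled siRNA. Both groups had grown for 36 h beforehand, were transfected with Lipofectamine RNAiMAX for 3 h, then starved of serum for 21 h and harvested at 24 h. Both had been preplated and kept with bromodeoxyuridine. There were 3 cultures a group, said to be independent experiments, and 1 single-colour array for each. Nothing in the labels tells which cultures shared animals, so a p-value reflects the scatter of these 6 cultures only.

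As background, the newborn heart turns from glucose and lactate to long-chain fatty acids as its main fuel. Fatty acids enter through transporters such as Cd36, are bound by Fabp proteins, joined to coenzyme A by acyl-CoA synthetases and passed into mitochondria by the carnitine shuttle. Each turn of the beta-oxidation spiral uses a dehydrogenase, a hydratase, a second dehydrogenase and a thiolase. The first dehydrogenase hands its electrons to the respiratory chain through the electron transfer flavoprotein. Many of these genes are targets of PPAR nuclear receptors, which bind DNA with an RXR partner.

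The single siRNA that defines the treated group is printed because all differences below are measured after it. It is written 5′ to 3′ without its overhang, with bases 2 to 8 in capitals. These are the seed only if the printed strand is the guide strand, which was not established here.
si-uc.323: gGUAAGUAauuucagcaau
The sequence of the scrambled siRNA is not given in the sources used here, and uc.323 itself was not analysed here.

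The promoters of the 2 genes that passed the test, Ucp3 and Acsl1, are shown next, each from 250 bases before to 50 after the start in RefSeq's promoter table (build GRCr8), on the strand of the gene, with the nuclear receptor half-site AGGTCA in capitals. Ucp3 lies at chr1:164227660-164227959 on the plus strand and Acsl1 at chr16:52532343-52532642 on the minus strand.
Ucp3: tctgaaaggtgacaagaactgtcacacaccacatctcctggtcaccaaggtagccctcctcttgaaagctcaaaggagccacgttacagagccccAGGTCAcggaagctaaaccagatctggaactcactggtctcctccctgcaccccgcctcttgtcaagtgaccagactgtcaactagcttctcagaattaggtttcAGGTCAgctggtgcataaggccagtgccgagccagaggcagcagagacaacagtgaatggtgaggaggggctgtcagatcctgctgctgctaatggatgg
Acsl1: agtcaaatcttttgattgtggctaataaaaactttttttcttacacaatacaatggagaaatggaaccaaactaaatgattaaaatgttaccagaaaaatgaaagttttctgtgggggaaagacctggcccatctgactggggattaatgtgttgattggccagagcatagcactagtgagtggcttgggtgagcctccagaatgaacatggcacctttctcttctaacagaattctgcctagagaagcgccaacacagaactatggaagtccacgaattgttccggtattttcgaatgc
The Ucp3 window held 2 half-sites, at -155 to -150 and at -50 to -45 from the start, and the Acsl1 window held none. Searched on both strands, the half-site stood in the windows of 8 of the 31 members with an entry (25.8%), against 16.2% of all 33469 promoters of that length. The members' share counts genes, which had 32 promoters between them, and the other share counts promoters. The 8 genes were Acadvl, Echs1, Eci1, Eci2, Hadhb, Plin5, Slc27a1 and Ucp3. The direct repeat AGGTCANAGGTCA, which contains the half-site at both ends, was in none of the members' windows and in 0.0538% of all promoters. A relaxed form, AGGNCANAGGNCA, which includes that repeat, was likewise in none of them and in 0.415% of all. The extended half-site TNAAGGTCA was in none of them and in 1.2% of all. These are matches of letters in short windows, and nothing in these data measured binding there.

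The array values are log2 signals relative to the 75th percentile of their array, and a level is compared only with the same probe on another array. The 75th percentile lay between 1181.7 and 1380.9 intensity units on the 4 arrays of slide 1, which held all si-scramble samples and si-uc.323 replicate 1, and at 1718.4 and 1774.8 on slide 2, which held si-uc.323 replicates 2 and 3. Group and slide are therefore tied in part, and the number of arrays limits the precision. All 11 cardiomyocyte markers with a probe were above background on all 6 arrays. Their summed linear signal, in multiples of the 75th percentile, ranged from 261.7 to 284.2 with si-uc.323 and from 299.9 to 311.1 with si-scramble. Summed signals of 8 endothelial markers were 5.735 to 8.729 against 11.16 to 12.54, and those of 10 fibroblast markers 127.4 to 159.3 against 125.2 to 135.7. For 8 smooth muscle and pericyte markers the sums were 42.14 to 50.21 against 40.19 to 44.41, for 10 macrophage and leukocyte markers 14.48 to 18.65 against 17.18 to 17.28, for 6 epicardial markers 4.65 to 6.026 against 6.264 to 6.442, and for 3 erythroid markers 0.6155 to 0.6778 against 0.8876 to 1.123. The cardiomyocyte, endothelial, epicardial and erythroid sums were each lower on the 3 treated arrays than on any control, but a linear sum follows its brightest genes. Kdr made up 90.1% of the endothelial sum in the controls (log2 fold change -0.76, adjusted p = 0.068), while 5 of the 8 endothelial markers had values above 0, Cldn5 among them (1.103, adjusted p = 0.0639), and the list's median was 0.24. Hbb made up 93.6% of the erythroid sum and passed the limma test (-0.61, adjusted p = 0.0478). The other markers that passed were Actc1 of the cardiomyocyte list (-0.63, adjusted p = 0.0314), Cx3cr1 of the macrophage list (-1.60, 0.0462) and Postn of the fibroblast list (0.69, 0.0312). Of the 11 cardiomyocyte markers, 5 were lower without overlap and 3 higher, against 19% and 20.1% of all genes. The median log2 fold change was 0.011 for the cardiomyocyte list (6 of 11 above 0), 0.020 for the epicardial list (3 of 6) and -0.55 for the erythroid list (0 of 3). It was 0.18 for 9 fibroblast, 0.27 for 8 smooth muscle and 0.060 for 9 macrophage markers tested. The part of these cell types in the results was not tested. In bulk samples, fewer cells of a type and less RNA per cell cannot be told apart.

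Several adipocyte markers stood apart by slide, and that cell type also expresses lipid storage genes. Adipose tissue had been trimmed from the ventricles, per the labels' protocols. Adipoq, the adipocyte hormone adiponectin, read -7.75, -3.01 and -1.94 on si-uc.323 replicates 1, 2 and 3 and -7.67, -8.01 and -8.35 on the si-scramble arrays. It was above background on the 2 arrays of slide 2 and on none of slide 1. Retn, the adipocyte hormone resistin, read -4.63, -1.05 and -0.96 with si-uc.323 and -4.38, -4.67 and -4.62 with si-scramble. Cidec, a lipid droplet protein of fat cells, read -8.65, -6.66 and -5.30 against -8.52, -8.01 and -7.74. In all 3 genes the arrays of slide 2 were the highest and si-uc.323 replicate 1 lay with or below the controls. The summed signal of the 7 adipocyte markers with a probe ranged from 0.4196 to 1.473 with si-uc.323 and from 0.4742 to 0.4867 with si-scramble, and only 3 of the 7 (Retn, Cfd and Aqp7) were above background on all 6 arrays. Aqp7, a glycerol channel, differed from the others: it read -5.68, -5.58 and -4.68 with si-uc.323 against -5.16, -5.30 and -5.10, so replicate 2 lay below every control and replicate 3 above them. The part of these cells in the results was not tested, so values on slide 1, where Adipoq was at background, are given beside them.

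**Figure D1:**
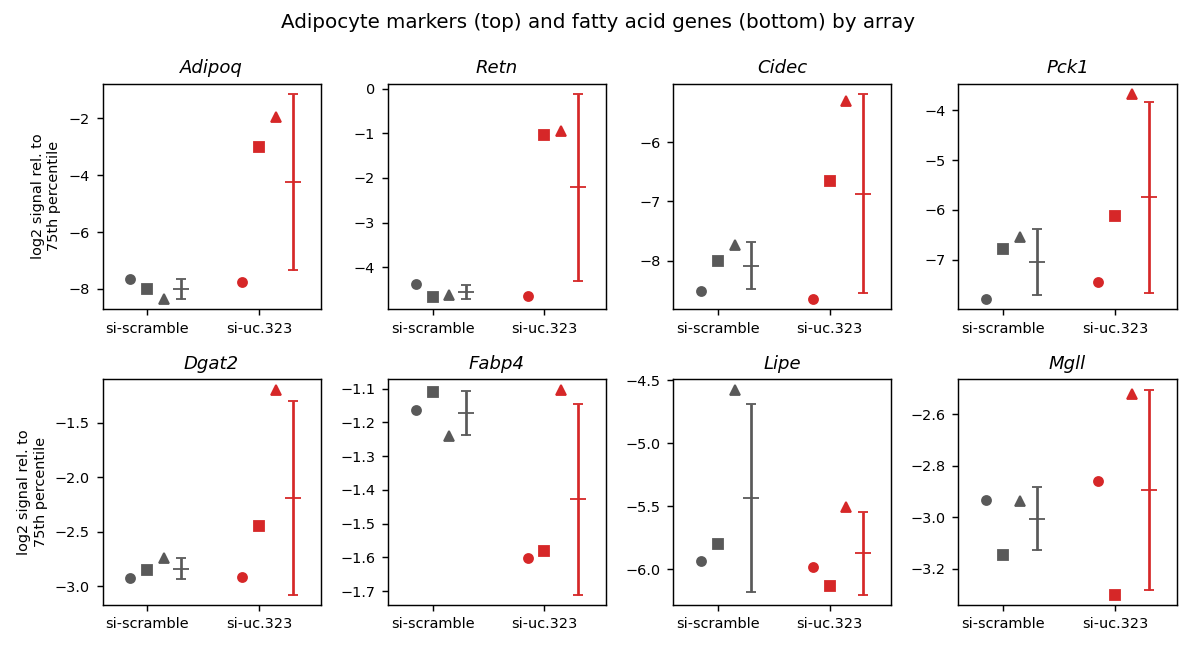
Log2 signal relative to the array's 75th percentile for 4 adipocyte markers (top row) and 4 lipid storage and binding genes (bottom row), by group; circles, squares and triangles are replicates 1, 2 and 3, and bars are mean and SD of 3 arrays. Adipoq and Retn were high on si-uc.323 replicates 2 and 3 alone, and Dgat2 was highest on the same 2 arrays. Fabp4 and Mgll lay below the controls on replicate 2 and above them on replicate 3.

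Of the 39 genes, 2 fell with si-uc.323 and 0 rose at an adjusted p under 0.05 (limma, Benjamini-Hochberg over 19916 features), where 2.88% of all 11579 genes tested passed lower, 3.26% higher and 6.14% in either direction. The 2 were Ucp3 and Acsl1, and at such a background share their number is no result about the list. At an unadjusted p under 0.05, 11 members were lower and 2 higher, against 13.3% and 16.7% of all genes. All 39 passed the filter on dim probes, and 38 were above background on all 6 arrays. The fitted difference was below 0 in 29 members and above 0 in 10, and 47.3% of all genes lay below 0. The median log2 fold change (si-uc.323 minus si-scramble) was -0.20, against 0.024 over all genes. In 12 members the 3 si-uc.323 values all lay below the 3 si-scramble values and in 2 they all lay above, against 19% and 20.1% of all genes. In the other 25 the groups overlapped.

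The size of this lean depended on scaling. Shifting the arrays to a common median moved the median of all genes from 0.024 to -0.081 and that of the members to -0.31. Such a shift moves all genes alike, so the lean against all genes stayed the same. The shift turned the split of all called genes from 377 higher and 334 lower to 279 higher and 503 lower. Quantile normalization gave 455 higher and 632 lower, and with the authors' series table the split was 404 and 573. The members' median was -0.12 with quantile normalization, -0.14 with the series table and -0.18 with normexp background correction. Those of all genes were -0.015, -0.026 and -0.067, so the lean was smaller there. On the 4 arrays of slide 1 the members' median was -0.16 and 0 members were called. At an unadjusted limma p under 0.05, 13 members were lower and 3 higher there, against 31.4% of all genes in either direction. Values on slide 1 and with the slide as a block rest on 1 treated array, and their p-values assume that it varies like the other arrays.

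The lean differed between the treated arrays. On si-uc.323 replicate 1, 27 of 39 members lay below all si-scramble arrays and 5 above. Of all genes, 38.4% lay below and 38.5% above. On replicate 2 the members' numbers were 28 and 6, where 37.6% of all genes lay below and 37.2% above. On replicate 3 they were 20 and 14, where 35.6% of all genes lay below and 48.7% above. Replicate 3 also differed from the controls by signal: its median difference was 0.35 over the 2895 dimmest genes and -0.24 over the 2895 brightest, against 0.013 and -0.074 on replicate 1. Among those brightest genes were 22 members, of which 17 were below the si-scramble mean on replicate 3, 19 on replicate 1 and 18 on replicate 2. Of all 2895, 2200 were below it on replicate 3, 1782 on replicate 1 and 1524 on replicate 2. On replicate 3 the members thus lay near the share of all bright genes.

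**Figure D2:**
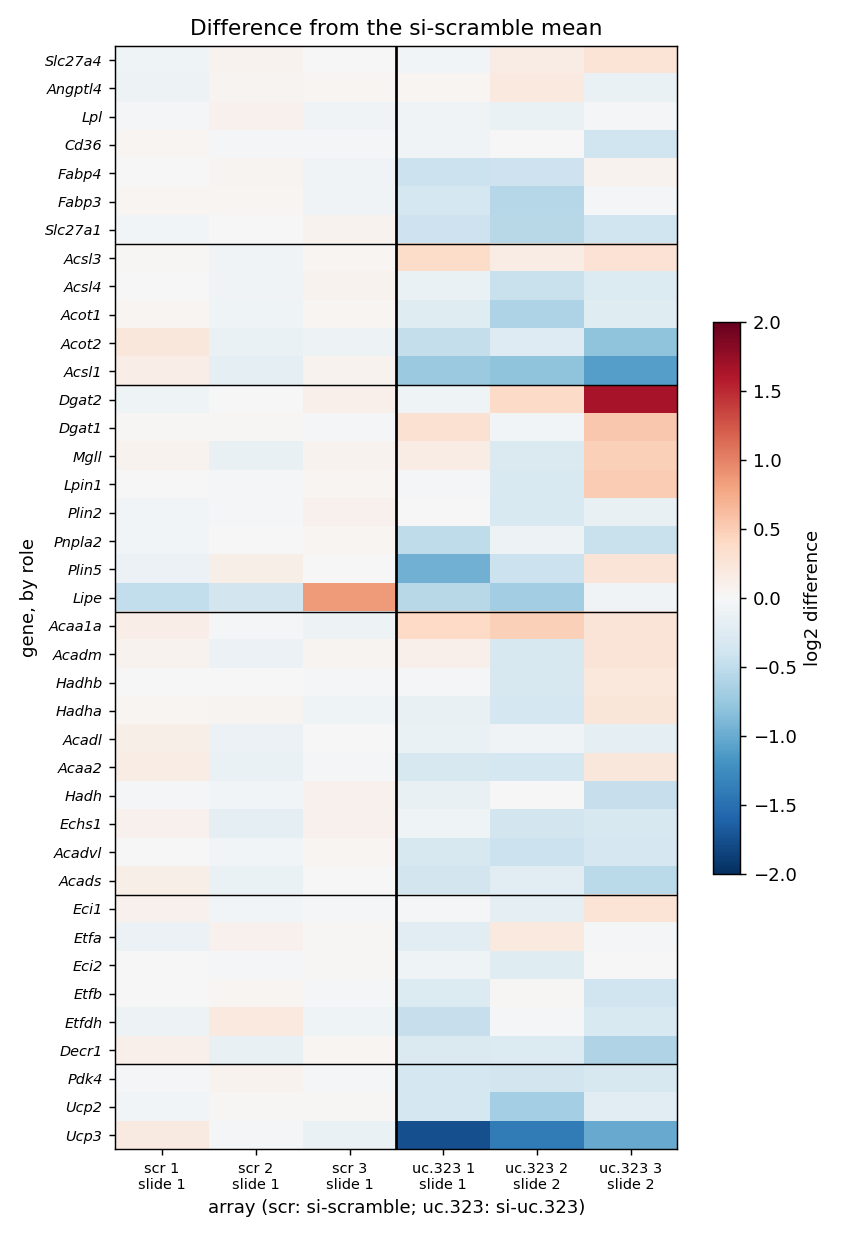
Difference of each of the 39 genes (rows, grouped by role) from the si-scramble mean, in log2 units, on the 6 arrays (columns, with their slide); blue is lower and red is higher. Ucp3 and Acsl1 are blue on the 3 si-uc.323 arrays. The storage genes Dgat2, Dgat1, Lpin1, Mgll and Plin5 are above the si-scramble mean on si-uc.323 replicate 3, and Plin2, Pnpla2 and Lipe below it. Genes of other roles are also above it there, such as Slc27a4, Eci1 and Acadm.

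**Figure D3:**
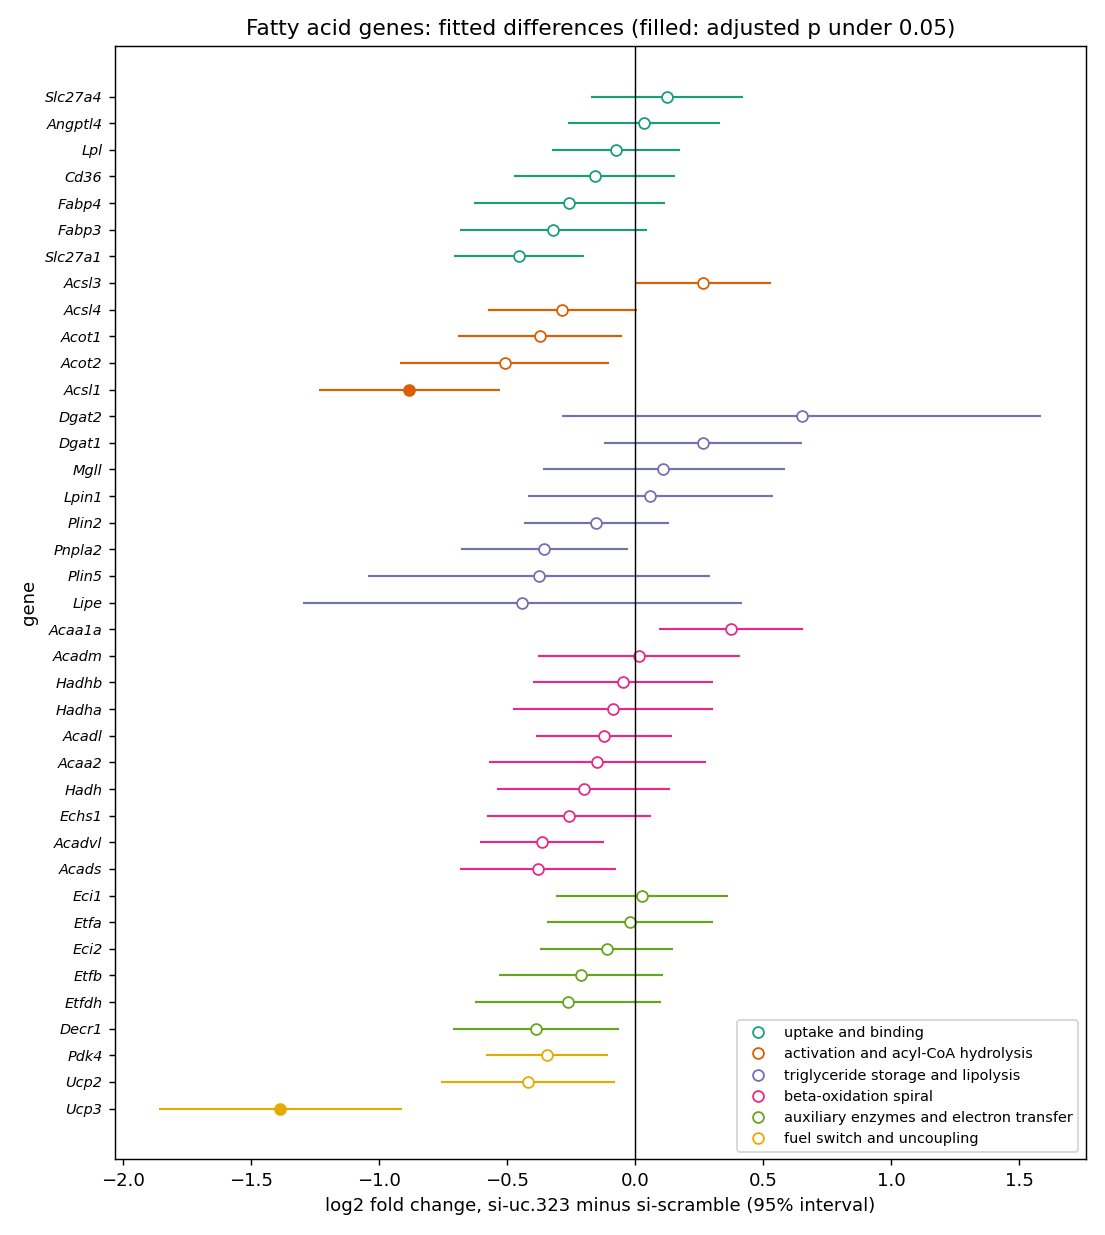
Fitted log2 fold change of si-uc.323 over si-scramble (x axis) with its 95% interval for the 39 genes, coloured by role, n = 3 arrays per group; filled points passed an adjusted p under 0.05. Ucp3 and Acsl1 are the filled points, and Dgat2 has the highest value and an interval from -0.28 to 1.59.

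Among the 7 genes of uptake and binding, 0 passed the test, 5 had a fitted value below 0, and the median was -0.16. Cd36, the main fatty acid transporter of the heart, read 3.56, 3.64 and 3.24 with si-uc.323 and 3.68, 3.62 and 3.62 with si-scramble. The groups overlapped, with replicate 3 the lowest, and the log2 fold change was -0.16 ± 0.13 (SE, n = 3 and 3; adjusted p = 0.477). A second Cd36 probe gave -0.19. Fabp3, the heart fatty acid binding protein, read 1.49, 1.26 and 1.80 against 1.88, 1.87 and 1.76. Here replicates 1 and 2 lay below the controls and replicate 3 among them (-0.32 ± 0.16, adjusted p = 0.226). Lpl, the lipoprotein lipase that frees fatty acids from circulating triglyceride, read 1.58, 1.53 and 1.64 against 1.63, 1.75 and 1.59. Its groups overlapped, with a 95% interval for the difference of -0.33 to 0.18 (adjusted p = 0.685).

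Slc27a1, the fatty acid transport protein FATP1, was the one gene of this group whose arrays did not overlap. It read -1.07, -1.22 and -1.06 with si-uc.323 and -0.72, -0.67 and -0.60 with si-scramble, so the 3 treated arrays were each below the 3 controls. The log2 fold change of -0.45 ± 0.11 missed the threshold (adjusted p = 0.0564). It passed under 6 of 19 alternatives, among them quantile normalization (adjusted p = 0.0325), with a range of 0.0119 to 0.312, and read -0.41 on slide 1. The remaining members had overlapping groups: Slc27a4, the related transporter FATP4, read a log2 fold change of 0.13, Angptl4, a secreted inhibitor of Lpl, 0.036, and Fabp4, the binding protein of fat and endothelial cells, -0.26. Fabp4 read -1.60, -1.58 and -1.10 with si-uc.323 against -1.16, -1.11 and -1.24, so replicates 1 and 2 lay below the controls and replicate 3, the array with the highest Adipoq, lay just above them.

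In activation and acyl-CoA hydrolysis the groups did not overlap in any of the 5 genes, 4 lower and 1 higher, and 1 gene passed the test (median -0.37). Of all genes, 19% were lower without overlap and 20.1% higher, so so few genes say little about the role. Acsl1, the long-chain acyl-CoA synthetase that dominates in heart muscle, read 3.12, 3.06 and 2.75 with si-uc.323 and 3.99, 3.65 and 3.93 with si-scramble. The means were 2.98 ± 0.20 and 3.86 ± 0.18 (SD, n = 3), and the lowest control lay above the highest treated array. Acsl1 fell by 0.88 on the log2 scale (SE 0.15, 95% interval -1.23 to -0.53, adjusted p = 0.0294), a level 1.84-fold lower. The call was lost without si-scramble replicate 1, 2 or 3 (adjusted p = 0.125, 0.0879 and 0.148), without si-uc.323 replicate 3 (0.0533), with dim probes kept (0.103), on slide 1 alone (-0.74, 0.0866) and with the slide as a block (0.217). Over the 19 alternatives the adjusted p ran from 0.00582 to 0.217 and the log2 fold change from -0.98 to -0.74.

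The other synthetases went separate ways without passing the test. Acsl4, which prefers arachidonic acid, had a log2 fold change of -0.28 (adjusted p = 0.186). Acsl3, a synthetase of the endoplasmic reticulum and lipid droplets, had one of 0.27 (adjusted p = 0.178). The thioesterases Acot1 (cytosolic) and Acot2 (mitochondrial) undo activation by splitting acyl-CoA, and they lie next to each other on chromosome 6 with 0 protein-coding genes between them. Acot2 read 2.46, 2.68 and 2.14 with si-uc.323 and 3.16, 2.81 and 2.84 with si-scramble, without overlap but with the nearest values 2.68 and 2.81. Its log2 fold change was -0.51 ± 0.17 (adjusted p = 0.116), and a second, dimmer probe gave -0.29. Acot1 had -0.37 (adjusted p = 0.137). Such close relatives can share hybridisation, so the split between these 2 is uncertain.

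The 8 genes of triglyceride storage and lipolysis showed no common direction: 4 were above and 4 below 0, none passed the test, and 1 had groups that did not overlap. Dgat2, which adds the last fatty acid to triglyceride, read -2.92, -2.45 and -1.20 with si-uc.323 and -2.93, -2.85 and -2.74 with si-scramble. Replicate 1 lay among the controls, and replicates 2 and 3 lay above them in the same order as Adipoq. Over the 2895 genes of like signal to Dgat2, the median difference was 0.27 on replicate 3 and 0.022 on replicate 2. The cause of the Dgat2 pattern was not tested. The fitted difference of 0.65 had a 95% interval of -0.28 to 1.59 (adjusted p = 0.325), and on slide 1 it was -0.079. Dgat1, the other enzyme of that step, had a log2 fold change of 0.27 and Lpin1, a phosphatidate phosphatase, one of 0.059. Plin2, the coat protein of lipid droplets in most cells, read 1.95, 1.66 and 1.80 against 1.90, 1.92 and 2.03, with overlap (-0.15 ± 0.12, adjusted p = 0.448). Plin5, the coat protein of droplets in oxidative muscle, had a value of -0.38 and was above background on 2 of 3 si-uc.323 arrays.

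On the lipolysis side, Pnpla2, the lipase ATGL that begins triglyceride breakdown, read -1.65, -1.23 and -1.58 with si-uc.323 and -1.18, -1.12 and -1.09 with si-scramble. The treated arrays lay below the controls, replicate 2 by little, with a log2 fold change of -0.35 ± 0.14 (adjusted p = 0.152). It was -0.48 without si-uc.323 replicate 2 (adjusted p = 0.0384), and the adjusted p ran from 0.0151 to 0.398 over the 19 alternatives. Lipe, hormone-sensitive lipase, had -0.44 (adjusted p = 0.467), and a second, dimmer probe gave -0.11. On the brighter probe the controls were -5.93, -5.80 and -4.58, so 1 control array stood above all others. Mgll, which splits the last fatty acid from glycerol, had 0.11 (adjusted p = 0.753), with replicate 2 below and replicates 1 and 3 above the controls.

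In the beta-oxidation spiral itself, 0 of 10 genes passed the test, 8 had values below 0, and the median was -0.14. The acyl-CoA dehydrogenases, which open each turn, are divided by chain length. Acadvl, the very-long-chain enzyme, read 1.02, 0.91 and 1.01 with si-uc.323 and 1.35, 1.30 and 1.39 with si-scramble. Its groups were tight and apart, with a log2 fold change of -0.36 ± 0.10 (adjusted p = 0.0804). Acadm, the medium-chain enzyme, read 0.68, 0.26 and 0.83 against 0.64, 0.45 and 0.62. The groups overlapped (0.015 ± 0.17, 95% interval -0.38 to 0.41, adjusted p = 0.965). Acads, the short-chain enzyme, had a log2 fold change of -0.38 without overlap (adjusted p = 0.117), and Acadl, the long-chain enzyme, one of -0.12 with overlap. Differences between these enzymes were not tested.

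Hadha and Hadhb encode the alpha and beta subunits of the mitochondrial trifunctional protein, which carries out the later steps for long chains. Hadha read 0.18, -0.017 and 0.58 with si-uc.323 and 0.37, 0.38 and 0.25 with si-scramble, and Hadhb 1.93, 1.64 and 2.17 against 1.96, 1.97 and 1.94. In both genes replicate 2 was the lowest and replicate 3 the highest of all arrays, and the differences were -0.086 (adjusted p = 0.768) and -0.046 (adjusted p = 0.868). The 2 genes are neighbours on opposite strands, and their promoter windows share 200 bases, chr6:31907551-31907750 in GRCr8. This shared stretch is printed because it belongs to both genes, on the plus strand, and holds 0 half-sites.
Hadha and Hadhb shared window: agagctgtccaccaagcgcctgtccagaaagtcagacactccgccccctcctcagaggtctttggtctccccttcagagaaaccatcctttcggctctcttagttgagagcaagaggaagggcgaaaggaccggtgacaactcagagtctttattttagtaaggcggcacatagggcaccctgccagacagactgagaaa
The spiral's further enzymes overlapped between groups in 3 of 4 cases. Hadh, the dehydrogenase for shorter chains, had a log2 fold change of -0.20, Echs1, the hydratase, -0.26, and Acaa2, the mitochondrial thiolase, -0.15. Acaa1a, a peroxisomal thiolase grouped here with the spiral, had the opposite sign. It read 1.94, 2.02 and 1.80 with si-uc.323 and 1.68, 1.51 and 1.45 with si-scramble, without overlap (0.38 ± 0.12, adjusted p = 0.101). Its second probe gave 0.47 (adjusted p = 0.0506 with every probe fitted). Acaa1a passed under 3 of 19 alternatives, with adjusted p between 0.0247 and 0.354. Its relative Acaa1b, outside the list, had 0.42 without overlap (adjusted p = 0.0959). Shared hybridisation between these genes was not tested.

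Of the 6 auxiliary and electron transfer genes, 0 passed the test and 5 had values below 0 (median -0.16). Etfdh, the membrane enzyme that passes electrons from the flavoprotein to ubiquinone, read 0.93, 1.37 and 1.09 with si-uc.323 and 1.29, 1.58 and 1.30 with si-scramble. Replicates 1 and 3 lay below the controls and replicate 2 between them (-0.26 ± 0.15, adjusted p = 0.311). The flavoprotein subunits Etfa and Etfb had log2 fold changes of -0.020 and -0.21 with overlap. Decr1, the reductase needed for polyunsaturated chains, had -0.39 without overlap (adjusted p = 0.126). The enoyl-CoA isomerases Eci1 and Eci2, which move double bonds in unsaturated chains, had 0.028 and -0.11 with overlap.

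The 3 genes of fuel switch and uncoupling were all lower without overlap, as were 19% of all genes, and 1 of the 3 passed the test. Ucp3, the uncoupling protein of skeletal and heart muscle mitochondria, whose expression is known to follow fatty acid supply, read -4.77, -4.42 and -4.02 with si-uc.323 and -2.83, -3.06 and -3.16 with si-scramble. The means were -4.40 ± 0.37 and -3.02 ± 0.17 (SD, n = 3), and the gap between the nearest arrays of the groups was wider than the range within either group. Ucp3 fell by 1.38 on the log2 scale (SE 0.20, 95% interval -1.86 to -0.91, adjusted p = 0.0228), a level 2.61-fold lower, and 0.19% of all genes had a lower value. Unlike Acsl1, it was lowest on si-uc.323 replicate 1, the treated array that shared a slide with the controls. The call was lost without si-scramble replicate 1, 2 or 3 (adjusted p = 0.107, 0.0887 and 0.129), with dim probes kept (0.0972), on slide 1 alone (-1.75, 0.0636) and with the slide as a block (0.0769). Normexp background correction gave -0.91 with the call kept (adjusted p = 0.0102), and the adjusted p ran from 0.00317 to 0.129 over 19 alternatives.

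Ucp2, its neighbour on chromosome 1 with 0 protein-coding genes between, is expressed in many tissues. Its log2 fold change was -0.42 ± 0.14 without overlap (adjusted p = 0.118). Pdk4 is the kinase that inhibits pyruvate dehydrogenase when fatty acids are burnt. It read -2.94, -2.96 and -2.92 with si-uc.323 and -2.63, -2.52 and -2.64 with si-scramble. Its treated arrays differed from each other by less than from any control, and the log2 fold change was -0.34 ± 0.10 (adjusted p = 0.0883). Pdk4 passed under 4 of 19 alternatives, among them quantile normalization (adjusted p = 0.0367, range 0.0236 to 0.351). Its slide 1 value was -0.34, and that of Ucp2 -0.36.

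**Figure D4:**
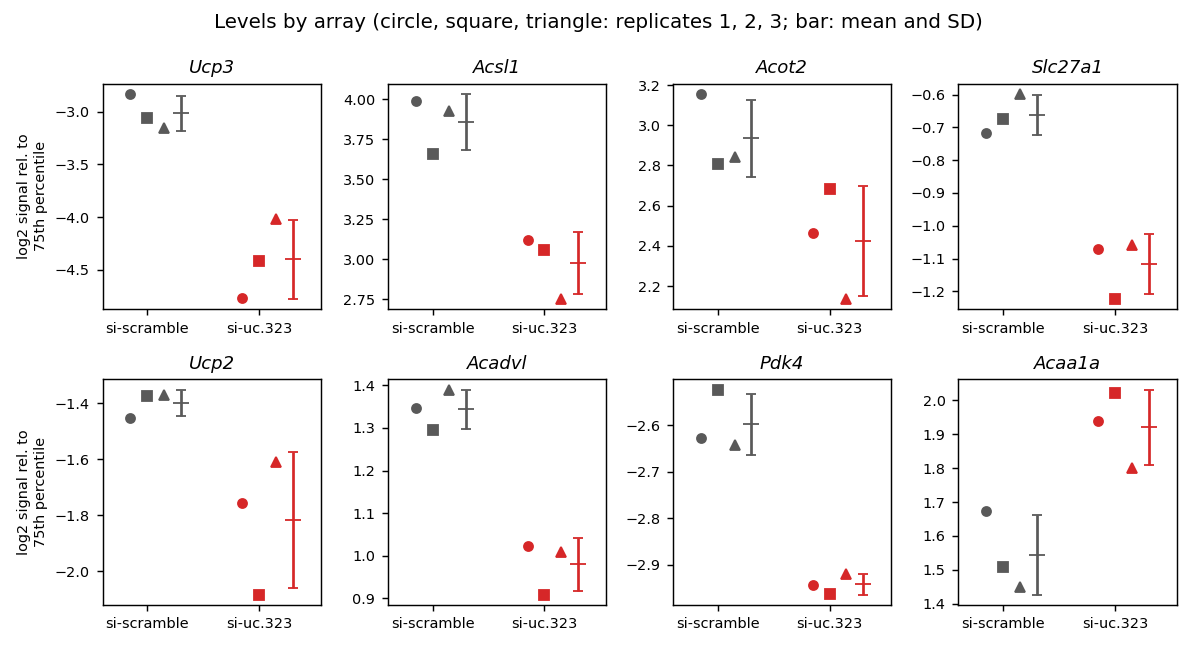
Log2 signal relative to the array's 75th percentile for 8 genes whose groups did not overlap; circles, squares and triangles are replicates 1, 2 and 3, and bars are mean and SD of 3 arrays. Ucp3 and Acsl1 passed the test; Acaa1a is the gene shown with the treated arrays above the controls.

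The neighbouring steps of the pathway were read from further lists, also chosen with earlier results of these data known. Of all genes, 2.88% passed lower and 3.26% higher, and the lists were not tested as sets. In the carnitine shuttle, which moves long acyl chains into the mitochondrion, 2 of 8 genes fell and 0 rose. These were Cpt1b, the muscle form of the gatekeeper enzyme (log2 fold change -0.86 ± 0.14, adjusted p = 0.0267), and Crat, which joins acetyl groups to carnitine (-0.69 ± 0.12, adjusted p = 0.0301). In peroxisomal oxidation and import, 1 of 12 tested genes fell and 0 rose: Abcd2, a peroxisomal importer of very long chains (-1.12 ± 0.16, adjusted p = 0.0231). Among 13 PPAR, RXR and PGC-1 regulators 2 fell and 0 rose, Rxrg, a partner receptor of the PPARs (-1.43 ± 0.16, adjusted p = 0.0172), and Klf15, a transcription factor of lipid use in muscle (-0.85 ± 0.13, adjusted p = 0.0231). No gene passed in ketone body metabolism (6 tested), in the other members of the uptake, binding and activation families (30 tested) or in the other storage and lipolysis genes (21 tested). At an unadjusted p under 0.05 these 3 lists had 2, 4 and 5 lower and 1, 2 and 3 higher genes, against 13.3% lower and 16.7% higher of all genes. The lists' medians were 0.085, -0.010 and -0.14, and those of the carnitine, peroxisomal and regulator lists -0.22, -0.12 and -0.11.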

How the data were processed

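Cy3-labelled RNA was hybridised to Agilent arrays of design 028282, per the file headers. The deposited spot intensity comes from Agilent Feature Extraction 11.0.1.1, background-subtracted and detrended within its array, per the file headers and the submitters' processing notes. The authors' deposited series table holds log2 values with equal column medians (6.511). How they were scaled and centred is not given in the sources used here; they served as an alternative. Flagged spots (322 to 594 of 42877 an array) and control spots were left out, and no spot was saturated.

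Log2 processed intensity minus each array's 75th percentile was averaged over a probe's spots. A probe was kept if it stood well above background on the 3 arrays of either group. Names came from RefSeq accessions (assembly GRCr8), and 18005 of 30367 probes matched a single gene, 0 several and 12362 none. Groups were compared with lmFit and eBayes (limma 3.58.1, R 4.3.3, data.table in version 1.17.8), with Benjamini-Hochberg adjustment over 19916 features, 11579 of them named genes, and the fit was tested on simulated data. Errors in the text are standard errors of the fit unless marked SD. Figures used matplotlib 3.10.9 and pandas 2.3.3 in Python 3.11.15. Slides were read from scan identifiers in the headers.

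The members and lists were chosen with earlier results of these data known. Array values are printed for members past the threshold, for those with a log2 fold change of at least 0.5 in size and no overlap, and for 1 or more fixed genes of each role. Values of Fabp4, Lipe, Slc27a1, Hadhb and Acaa1a were added after they were seen. Genes outside the list are named where they passed the test or mark a cell type, and Acaa1b as a relative of Acaa1a. Alternatives covered background correction (normexp on median signals, offset 50), normalization, the series table, filters, probe choice, prior, array weights, slide or replicate number as a block, the arrays of slide 1 alone and omission of single arrays. Cyclic loess was chosen after seeing the data. A planned comparison of protein sequences was not made.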

Additional observations from a re-analysis of the deposited data

How the results depend on the processing

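The 2 calls among the 39 genes, Ucp3 and Acsl1, kept their direction under all 19 alternatives and lost significance under some. The number of members called lower was 0 with dim probes kept, with the slide as a block and on slide 1 alone. It was 4 with quantile normalization and with the series table, 13 with array weights, and 5 with cyclic loess. The number called higher was 1 with quantile normalization and cyclic loess and 2 with array weights. All genes called, 711 as reported, numbered 1087 with quantile normalization, 1172 with a trended and robust prior, 3395 with array weights, 1234 with cyclic loess, 3 with the slide as a block, and 0 with dim probes kept or on slide 1 alone (3110 and 3638 at an unadjusted limma p under 0.05). Leaving out single arrays gave 0 to 1858 genes called, 0 to 3 members called lower and a members' median of -0.23 to -0.16. The median was -0.31 with a common median shift, where that of all genes was -0.081, and -0.10 with cyclic loess. With the replicate number as a block, 404 genes were called and the members' calls did not change. Correlations of deviations between same-numbered samples were 0.20, 0.39 and -0.12, and those between other samples ran from -0.56 to 0.48. With 3 arrays a group and slide mixed in, these values cannot show whether the numbers pair the samples.

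Genes with differences near 0 changed sign under some alternatives, and so did Dgat2, whose main value of 0.65 was the highest among the members. Normexp gave -0.0040 for Slc27a4, -0.12 for Lpin1 and 0.022 for Etfa. Quantile normalization gave 0.0070 for Lpl, -0.048 for Lpin1, -0.0060 for Mgll, 0.028 for Hadhb and 0.024 for Etfa. The median shift gave -0.068 for Angptl4, -0.046 for Lpin1, -0.090 for Acadm and -0.077 for Eci1. The series table gave -0.067 for Lpin1, -0.0030 for Mgll and 0.0090 for Hadhb. Array weights gave -0.029 for Lpin1 and -0.0010 for Eci1, and cyclic loess -0.069 for Lpin1, 0.020 for Hadhb and 0.023 for Etfa. The slide block and slide 1 alone gave -0.056 for Slc27a4, -0.079 for Dgat2, -0.037 for Lpin1 and -0.019 for Eci1. Leaving out single arrays gave -0.17 to 0.24 for Lpin1, -0.13 to 0.077 for Etfa, -0.074 to 0.31 for Mgll, -0.17 to 0.089 for Hadhb, -0.25 to 0.045 for Hadha, -0.045 to 0.12 for Angptl4, -0.11 to 0.18 for Acadm and -0.097 to 0.13 for Eci1. Their causes were not tested.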
